A study of Drosophila melanogaster with 3 samples.

Results

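Sox15 occupancy was examined at 9 Drosophila melanogaster genes that encode interband and insulator proteins: Chro, pzg, BEAF-32, CTCF, su(Hw), Cp190, mod(mdg4), Dref and Adf1. They are 9 of the 13945 protein-coding genes annotated on the 6 chromosome arms, and each was examined over its body and the 5 kb upstream of it. The genes were chosen by name with the peak signals of these same lists already known, above all the signal at Chro, and the peaks themselves define what is counted. All values are therefore a description, and no test was made. The data were chromatin immunoprecipitation followed by sequencing (ChIP-seq) from whole prepupae, the stage between larva and pupa, of both sexes and of unknown age. The flies were a transgenic line that stably expresses Sox15, a transcription factor of the high-mobility-group family, with a GFP tag (eGFP) at its C-terminus. The immunoprecipitation used an antibody against GFP, although the antibody entry of the labels reads Sox15, and there were 3 biological replicates of this 1 group. The series has no contrast between conditions, and an untagged control library was not analysed here.

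Chromator is a chromodomain protein found at the interbands of polytene chromosomes, the open stretches between the compacted bands, which hold many promoters of widely expressed genes. Insulator proteins such as BEAF-32, CTCF and su(Hw) bind DNA through zinc fingers and recruit cofactors such as Cp190 and mod(mdg4), and together they limit contact between enhancers and promoters and mark borders of chromosome domains. BEAF-32 and Dref recognise overlapping sequences that are common in promoters of genes facing away from each other.

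An IDR peak was a peak of the set that the authors kept by the irreproducible discovery rate, and its summit was its deposited point of highest signal. Of the 9 genes, 8 had an IDR summit in the gene body or within 5 kb upstream, whereas 32.8% of all protein-coding genes did. Among the 6221 genes whose region was as long as those of the members, 40.3% did. The count depended on how a summit was given to a gene: it was 5 of the 9 with the gene body alone (10.8% of all protein-coding genes), and 4 when only summits nearest to a start of the gene itself were counted (17%). With the 2277 strongest IDR peaks it was 5 (20.4%). An IDR summit lay within 1000 bp of a start site of the gene itself for 7 of the 9, against 19.3% of all protein-coding genes. With the 2277 strongest IDR peaks this held for 4, and the share of all protein-coding genes was not computed for that list. CTCF was the gene with no IDR summit, and mod(mdg4) had its summits farther than 1000 bp from its own start. The 8 genes held 10 IDR summits in all, since BEAF-32 and mod(mdg4) had 2 each. Of these 10, 9 lay in a promoter, defined as within 500 bp of any annotated start site, and 1, at Adf1, lay in an intron. Among all 4555 IDR peaks 41.3% lay in a promoter. That share covers peaks anywhere on the arms, whereas the member summits come only from gene bodies and 5 kb upstream, so the sets are unlike.

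**Figure D1:**
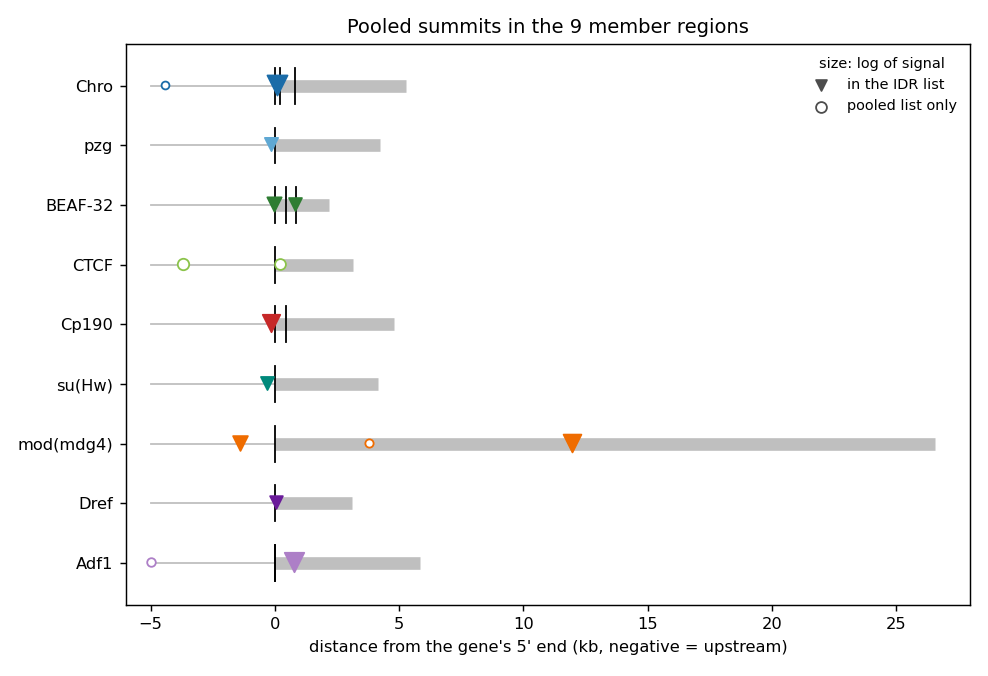
Each line is 1 gene with its 5 kb upstream (thin line) and its body (thick bar), drawn along the distance from its 5' end in kb. Black ticks are annotated start sites, filled triangles are summits of the IDR list and open circles are summits of the pooled list alone, with symbol size growing with the log of the signal. Filled triangles sit at or near the start in 7 genes, mod(mdg4) has 1 upstream and 1 inside its body, and CTCF has open circles only.

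Many of the member promoters were shared with a neighbour, as were those of other genes with an IDR summit near their start. In 6 of the 9 genes, the start nearest to the gene's own belonged to a gene transcribed in the opposite direction and lay less than 1000 bp away (head to head). The share of all protein-coding genes with that arrangement was 33.2%. Among genes that held an IDR summit inside that distance of their start it was 56.6%, and among the others it was 27.6%. The distance between the facing starts was 84 bp for Dref and RpL13, 105 bp for Chro and Ssl1, 137 bp for pzg and CG12974, 147 bp for Adf1 and Dpit47, 281 bp for Cp190 and CG4338, and 500 bp for su(Hw) and Polr2I. BEAF-32 and mod(mdg4) also faced their neighbours, but over 1046 and 1576 bp. A peak in such a promoter cannot be given to 1 gene of the pair by its position. Of the 10 member summits, 2, at Cp190 and su(Hw), lay between facing starts at most 1000 bp apart, and 13.2% of all IDR peaks did. The summits at Chro and Dref lay in the 5' UTR of the member, and that at pzg in the 5' UTR of CG12974. The Adf1 summit lay in an Adf1 intron, 780 bp from a start.

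The stretches between the facing starts at Chro, pzg, Cp190 and Dref are printed because the peaks covered nearly the whole of each of these shared promoters, and no annotated exon of either gene lies in them. They were chosen for print after their values were seen. All sequences are of the plus strand in dm6 coordinates, read from the RefSeq Release 6 assembly. Capitals mark matches to the BEAF-32 core CGATA or, in the Cp190 stretch, also to the Sox core AACAAT, each sought on both strands.
Chro and Ssl1, chr3L:22878985-22879088: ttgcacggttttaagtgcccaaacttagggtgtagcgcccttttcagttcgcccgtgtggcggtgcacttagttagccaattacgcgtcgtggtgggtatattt
pzg and CG12974, chr3L:21285963-21286098: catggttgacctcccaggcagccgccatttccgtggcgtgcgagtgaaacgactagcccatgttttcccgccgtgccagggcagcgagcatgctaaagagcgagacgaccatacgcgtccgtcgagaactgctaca
Cp190 and CG4338, chr3R:15275242-15275521: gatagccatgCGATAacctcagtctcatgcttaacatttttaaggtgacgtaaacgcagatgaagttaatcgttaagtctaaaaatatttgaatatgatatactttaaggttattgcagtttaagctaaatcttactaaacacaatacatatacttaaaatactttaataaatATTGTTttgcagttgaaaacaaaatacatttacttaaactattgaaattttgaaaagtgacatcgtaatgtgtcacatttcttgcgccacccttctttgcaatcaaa
Dref and RpL13, chr2L:9967230-9967312: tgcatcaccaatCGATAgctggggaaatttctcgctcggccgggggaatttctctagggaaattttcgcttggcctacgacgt
The IDR peak covered 95.2% of the Chro stretch, 99.3% of the Cp190 stretch and all of the other two. These 4 stretches differed in base composition, with a GC content of 60.3% between pzg and CG12974, 51.8% between Dref and RpL13, 51.0% between Chro and Ssl1, and 28.9% between Cp190 and CG4338. The Chro and pzg stretches held no match to any of the 9 patterns sought. The Dref stretch held 1 CGATA, and the Cp190 stretch held CGATA and, as ATTGTT on the plus strand, the Sox core. Among all 1197 stretches of 20 to 300 bases between facing starts, 53.4% held CGATA and 17.3% held AACAAT.

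At Chro, pzg and Dref the pooled summit lay outside the printed stretch, in an annotated 5' UTR. At Chro and pzg it also lay beside a CGATA match. The 25 bases round that match are shown because it starts within 3 bases of the pooled summit in both genes.
Chro, chr3L:22878882-22878906: tattgcctgtCGATAgctttaaact
pzg, chr3L:21285910-21285934: ataattacgtTATCGtaatgaacgg
The match at Chro began 2 bases to the right of the pooled summit. The match at pzg, which reads TATCG on the plus strand, began 3 bases to the left of the pooled summit. The pzg replicate summits lay 51, 79 and 78 bp to the left of the pooled one, so none of them lay beside the match. The Chro replicate summits fell within 18 bp of each other. Within 50 bp of the summit, 3 of the 10 member peaks held CGATA, namely Chro, pzg and BEAF-32 peak 2, and 12.6% of all IDR summit windows of the same 101 bp did.

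Chro, the Chromator gene, carried the strongest peak of the 9 genes. Chro (FBgn0044324) lies on the minus strand of 3L at 22873702 to 22878984, with 3 start sites. Its IDR peak, chr3L:22878717-22879083, had a signal of 2618 and ranked 6 of 4555. Signals are the authors' deposited values on a scale not stated in the sources used here, and they were read only within 1 list. The peak ranked 6, 5 and 8 in replicates 1, 2 and 3, with signals of 1247, 774 and 612. It was thus among the 8 strongest peaks of every replicate list, which held 19304, 19033 and 16102 peaks. The replicate summits fell within 18 bp of each other. The pooled summit lay 94 bp downstream of the most upstream Chro start, in the Chro 5' UTR, and 199 bp from the start of Ssl1, which encodes a subunit of the general transcription factor TFIIH. Among IDR peaks within 1000 bp of the start of a protein-coding gene, the 3 with the most similar ranks over the replicates were those at CG4496, with ranks of 8, 6 and 5, PNPase, with 9, 8 and 9, and Tcs5, with 7, 12 and 6. Likeness was the sum over the 3 replicates of the absolute log10 rank difference from Chro, which was 0.41 for CG4496, 0.43 for PNPase and 0.57 for Tcs5.

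The gene of its partner pzg (FBgn0259785), the zinc-finger protein Putzig that works with Chromator and with DREF, had a much weaker peak. The pzg peak, chr3L:21285725-21286120, had a signal of 180.3 and ranked 2703. It ranked 2700, 2578 and 2855 in the replicates, with signals of 89.8, 50.9 and 40.3, so it stayed between ranks 2578 and 2855. Expressed as a share of the Chro signal in the same list, the pzg peak was 6.79% ± 0.36 (SD, n = 3). Its pooled summit lay 176 bp upstream of the pzg start and 39 bp from the start of CG12974, in the 5' UTR of that gene. All 3 replicate summits lay to the left of the pooled one, by 51, 79 and 78 bp, and so farther from the pzg start, while they were within 28 bp of each other.

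**Figure D2:**
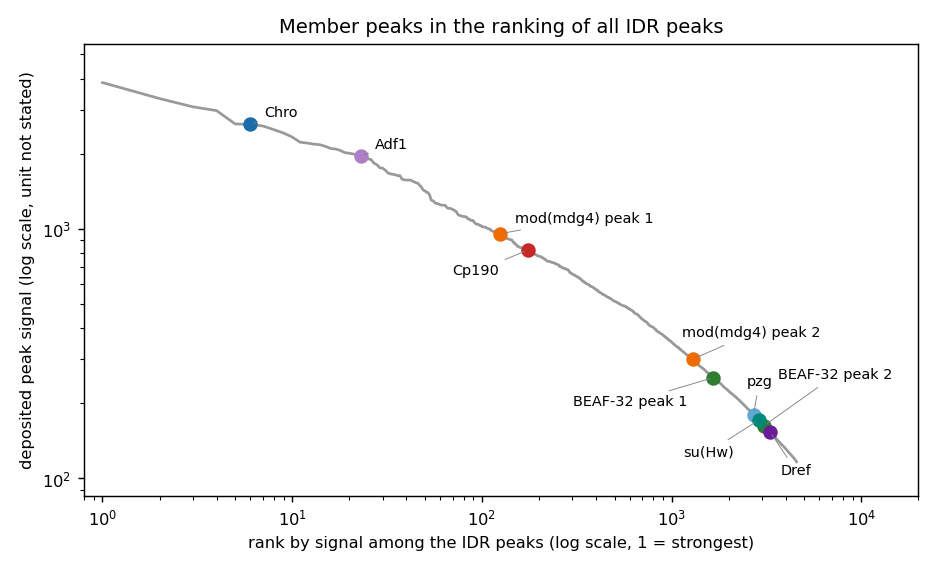
The line gives the deposited signal (vertical, log scale, unit not stated) of all 4555 IDR peaks against their rank (horizontal, log scale), and the dots are the 10 member peaks. Chro at rank 6 and Adf1 at rank 23 sit at the left end, mod(mdg4) peak 1 and Cp190 at ranks 125 and 175 follow, and the other 6 lie between ranks 1295 and 3300.

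Of the 3 member genes for DNA-binding insulator proteins, BEAF-32 and su(Hw) had their strongest IDR peaks at ranks 1661 and 2879, and CTCF had none. BEAF-32 (FBgn0015602), which encodes the boundary element-associated factor, lies on the plus strand of 2R at 14770469 to 14772630 with 3 start sites and had 2 IDR peaks. Peak 1, chr2R:14770224-14770619, had a signal of 254 and ranked 1661, with a summit 47 bp upstream of the most upstream start. Peak 2, chr2R:14771093-14771488, had a signal of 163 and ranked 3065, with a summit 10 bp upstream of the most downstream start and 4 bp from the start of the antisense RNA gene asRNA:CR42254. The summits were 869 bp apart, so each sat at a different promoter of the gene. In the replicates, peak 1 had signals of 93.3, 99.7 and 53.4 and ranks of 2539, 952 and 1918. Peak 2 had signals of 83.3, 34.9 and 41.1 and ranks of 2962, 4089 and 2770. The ratio of peak 1 to peak 2 within a list was 1.12, 2.85 and 1.30 in the replicates, a mean of 1.76 ± 0.95 (SD, n = 3), so that peak 1 was higher in all 3, and by most in replicate 2. The summit of peak 2 was among the least fixed of the members, with a span of 88 bp over the replicates, against 39 bp for peak 1.

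The su(Hw) gene (FBgn0003567), whose zinc-finger protein binds the gypsy insulator, had 1 IDR peak, chr3R:14308705-14309100, with a signal of 171 and rank 2879. Its signals in the replicates were 91.9, 44.4 and 35.0, and its ranks 2600, 3046 and 3404. These corresponded to 6.28% ± 0.95 (SD, n = 3) of the Chro signal in the same list. The summit lay between genes, 314 bp upstream of su(Hw) and 186 bp from the start of Polr2I, a subunit of RNA polymerase II. The replicate summits spanned 73 bp, since that of replicate 2 lay 67 bp to the right of the pooled one while the other two lay within 6 bp of it.

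CTCF (FBgn0035769), the fly counterpart of the vertebrate insulator protein CTCF, had no IDR summit. The pooled list held 2 weaker peaks in its region. The stronger, chr3L:7360200-7360595, had a signal of 109 and ranked 4890, below the lowest IDR signal of 117. It lay 3685 bp upstream of CTCF and 135 bp from the start of the neighbouring gene pst. The other, chr3L:7356324-7356719, had a signal of 92.6 and ranked 5813, with its summit 191 bp downstream of the CTCF start. Both had a peak in every replicate list, the peak at CTCF with ranks of 6175, 5479 and 6613 and signals of 44.1, 26.7 and 21.5. The peak at pst had ranks of 4409, 4348 and 7446 and signals of 60.1, 33.1 and 20.1. The CTCF promoter thus held a listed peak in all 3 replicates at a level that the IDR threshold did not keep. In replicates 1, 2 and 3 the −log10 q was 2.16, 1.72 and 0.44 at CTCF and 3.47, 2.76 and 0.32 at pst. The replicate 3 entries were thus weak, and the pooled list includes background outside the IDR set. Inside the threshold, the member peak nearest to it was that of Dref, with a signal of 154 and rank 3300 of 4555.

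The strongest IDR peaks in the regions of the cofactor genes Cp190 and mod(mdg4) ranked 175 and 125. Cp190 (FBgn0000283) encodes a protein that has a BTB domain and zinc fingers and is recruited by several insulator proteins. Its peak, chr3R:15275244-15275547, had a signal of 822 and ranked 175. The replicate signals were 369.6, 265 and 182, and the ranks 217, 136 and 192. This was 31.2% ± 2.59 (SD, n = 3) of the Chro signal in the same list, with 29.6%, 34.2% and 29.8% in the replicates. The replicate summits spanned 19 bp. The summit lay between genes, 166 bp upstream of Cp190 and 115 bp from the start of CG4338, inside the stretch printed above. It was the only member peak with a Sox core, AACAAT, within 50 bp of its summit, 8 bases to the right of it, and 13.3% of all IDR summit windows held one. The window was also the most AT-rich of the members, with a GC content of 20.8% against a member median of 34.7% and a median of 30.7% over all IDR summits.

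The mod(mdg4) gene (FBgn0002781) encodes a large family of BTB proteins that share their N-terminal part, and its alternative 3' exons are joined to it by trans-splicing from separately transcribed precursors. The annotation gives it 26556 bp and 22 transcripts from 1 start site. Peak 1, chr3R:21365254-21365589, had a signal of 957 and ranked 125. Its replicate signals were 401, 320.1 and 243 and its ranks 177, 73 and 99. The summit lay inside the gene, 11974 bp downstream of the mod(mdg4) start, but 61 bp from the start of pre-mod(mdg4)-E, which is named as 1 of those precursors. The strongest peak of the locus was thus at the start of a trans-splicing precursor and not at the common promoter. Peak 2, chr3R:21378614-21379009, had a signal of 301 and ranked 1295, with replicate signals of 180.1, 59.9 and 59.0 and ranks of 950, 2096 and 1638. Its summit lay 1411 bp upstream of mod(mdg4) and 165 bp from the start of tin, the homeobox gene tinman, and moved by only 3 bp between replicates. Peak 1 was 2.23, 5.34 and 4.12 times as high as peak 2 within the replicate lists, a mean of 3.90 ± 1.57 (SD, n = 3). In replicate 3 the list gave peak 1 a width of 108 bp, which covered 32.1% of the IDR peak, although its summit was 5 bp from the pooled one. A weaker pooled peak of the locus, with a signal of 51.8 and rank 11463, lay 27 bp from the starts of the further precursors pre-mod(mdg4)-AA, pre-mod(mdg4)-N and pre-mod(mdg4)-O.

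**Figure D3:**
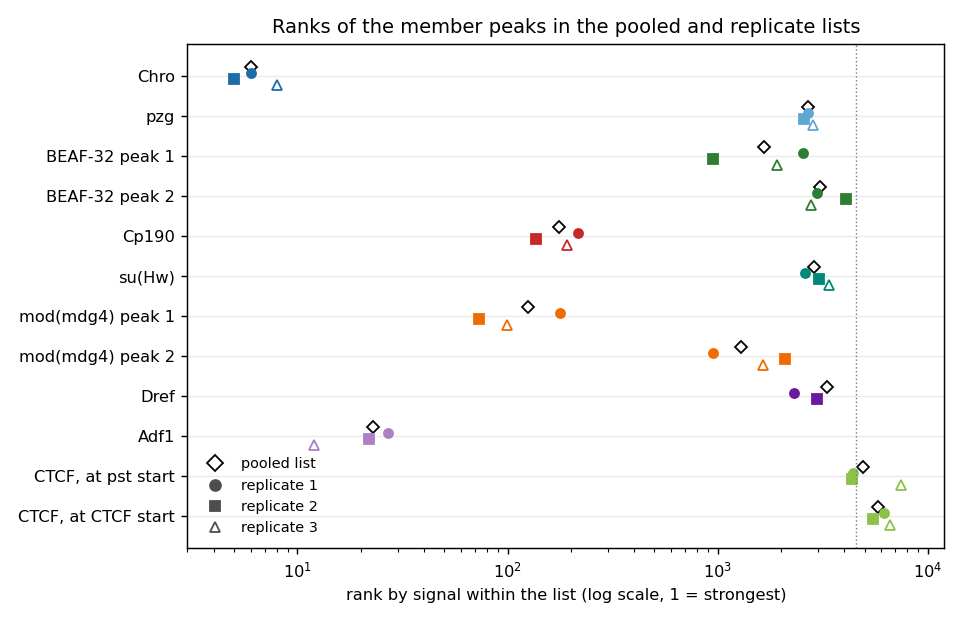
Ranks by signal (horizontal, log scale, 1 is the strongest) of the 10 member peaks and of the 2 pooled peaks at CTCF, in the pooled list (open diamonds) and in replicates 1 (circles), 2 (squares) and 3 (open triangles). The dotted line is rank 4555, the size of the IDR list. Chro and Adf1 keep ranks of 27 or less in every list, Cp190 and mod(mdg4) peak 1 stay between 73 and 217, the other member peaks lie between 950 and 4089, and Dref has no triangle because the replicate 3 list holds no peak there. The replicate lists differ in length.

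The genes of the promoter factors stood far apart, Adf1 with the strongest member peak after Chro and Dref with the weakest. Adf1 (FBgn0284249) encodes a Myb-domain factor first known from the alcohol dehydrogenase promoter and lies on the plus strand of 2R at 6662265 to 6668085. Its IDR peak, chr2R:6662897-6663237, had a signal of 1957 and ranked 23. The replicate signals were 858, 559 and 559 and the ranks 27, 22 and 12. As a share of the Chro signal this was 68.8%, 72.3% and 91.3% in the replicates, a mean of 77.5% ± 12.1 (SD, n = 3), so Chro was the stronger in each. The summit lay in an Adf1 intron, 780 bp downstream of a start site and 932 bp from the start of the facing gene Dpit47. Unlike the other member peaks, it was therefore not at a promoter, and its replicate summits spanned 21 bp.

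Dref (FBgn0015664) encodes the DNA replication-related element factor, which binds TATCGATA in promoters of genes for replication and growth. Its peak, chr2L:9966985-9967380, had a signal of 154 and ranked 3300, the lowest of the members. It had signals of 101 and 45.4 and ranks of 2306 and 2967 in replicates 1 and 2. The list of replicate 3 held no peak in the Dref region, and its nearest summit was 6159 bp away. Of all IDR peaks, 46 (1.01%) had no overlapping peak in the replicate 3 list, against 1 in replicate 1 and 9 in replicate 2, and 1.17% of the 600 IDR peaks of nearest rank to Dref had none in replicate 3. The summit lay 46 bp downstream of the Dref start, in its 5' UTR, and 130 bp from the start of RpL13, a ribosomal protein gene. The motif TATCGATA itself was found within 50 bp of the summit in none of the 10 member peaks and in 0.637% of all IDR windows. Of the stretches between facing starts, 14.8% held it. Those stretches differ from the windows in length and location, with or without a peak, so these shares are not comparable. CGATA is contained in TATCGATA, so the 2 searches overlap.

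Most of the other patterns had no match at the member summits. No member window held the Motif 1 core GGTCACAC (0.417% of all IDR windows), the su(Hw) core GCATACTT (0.90%), the CTCF core AGNNGGCGC (0.988%) or the E-box CAGCTG (2.48%). GAGAG was found at Dref (7.64% of all windows). TATAAA was found at su(Hw), mod(mdg4) peak 2 and Adf1 (23.6% of all windows). The 101 bases round the summits at su(Hw) and at mod(mdg4) peak 2 are given because these summits lie between genes, with TATAAA in capitals on either strand.
su(Hw), chr3R:14308853-14308953: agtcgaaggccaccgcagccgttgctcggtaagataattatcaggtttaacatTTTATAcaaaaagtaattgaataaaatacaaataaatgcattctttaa
mod(mdg4) peak 2, chr3R:21378762-21378862: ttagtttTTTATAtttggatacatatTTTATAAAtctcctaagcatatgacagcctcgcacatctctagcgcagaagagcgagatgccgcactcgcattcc
A match is a description of these letters and not of binding by a factor.

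Across the 10 member peaks, 9 were overlapped by a peak in all 3 replicate lists, the exception being Dref, and 98.8% of all IDR peaks were. Under the stricter rule that a peak among the 4555 strongest of a replicate cover at least 50% of the IDR peak, 8 of 10 were matched in all 3, the exceptions being Dref and mod(mdg4) peak 1, and 73.4% of all IDR peaks were. With 90% to be covered, 1 of the 10 was matched in all 3. Most peaks were 396 bp wide in the IDR list but 384, 360 and 364 bp in the replicate lists. That leaves the 90% rule little room. Of the 6 member peaks among the 2277 strongest IDR peaks, 5 were matched in all 3. The share over all IDR peaks was not computed for either rule. The median span of the replicate summits was 23 bp over the 9 member peaks seen in all 3, against 38 bp over all IDR peaks so seen and 18 bp over the 200 strongest. The spans were 18 to 23 bp for the 4 peaks of the highest signal and 3 to 88 bp for the others. The same replicates were pooled to give the IDR peaks, and a match is no independent test.

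The pooled list held 15 summits in the member regions, 5 of them outside the IDR list. Besides the pair at CTCF and the weaker peak of mod(mdg4), these were a peak at Adf1 and 1 at Chro. The Adf1 one, with a signal of 55.4 and rank 10330, lay 4976 bp upstream of Adf1 and 37 bp from the start of sced. The Chro one, with a signal of 48.1 and rank 13006, lay in an intron 4433 bp upstream of Chro, and 1758 bp from a start of slif, an amino acid transporter gene. Neither of these, nor the weak mod(mdg4) peak, had a peak in the replicate 3 list. Their −log10 q in the pooled list was 0.22 at Adf1, 0.05 at Chro and 0.13 at mod(mdg4), so these entries may be background. The replicate lists held 28, 20 and 12 summits in the same regions.

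**Figure D4:**
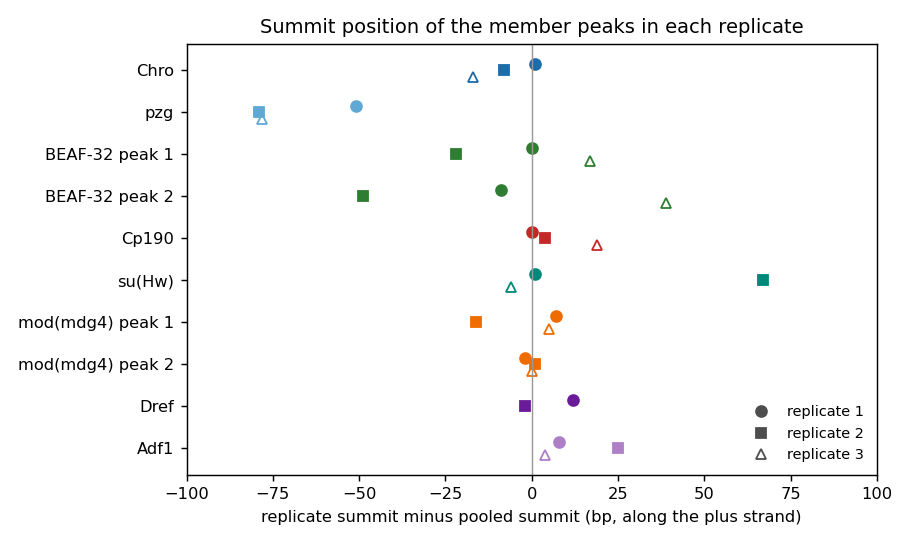
Distance in bp, along the plus strand, of each replicate's summit from the pooled summit, for the 10 member peaks in replicates 1 (circles), 2 (squares) and 3 (open triangles). The points of Chro, Cp190, mod(mdg4) and Adf1 lie within 25 bp of the pooled summit, those of pzg all lie 51 to 79 bp to its left, and BEAF-32 peak 2 and su(Hw) have the widest spreads.

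The median of the strongest signal per gene was 538 over the 8 occupied members and 248 over the 4574 occupied protein-coding genes. Of the members, 4 of 8 (50%) had a signal over 500, which were Chro, Adf1, mod(mdg4) and Cp190, against 19.8% of all occupied genes. The members were selected with these signals known, and nothing was read from the difference. The peaks come from whole animals, so a low signal in every cell cannot be told apart from a high signal in few cells.

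Other genes of interband and insulator proteins were counted in the same way. Of 30 listed, 29 were found in the annotation, and 11 of these (37.9%) had an IDR summit in the body or within 5 kb upstream, beside the 32.8% of all protein-coding genes. The count was 7 with the gene body alone (10.8% of all protein-coding genes) and 21 with all pooled peaks (61%). Trl, the gene of the GAGA factor, had the strongest, with a signal of 1471 and rank 48, in an intron 1539 bp from a Trl start. Its peak ranked 34, 52 and 57 in the replicates, between Adf1 and mod(mdg4) peak 1. Nup98-96, which encodes nucleoporins, followed with a signal of 557 and ranks of 472, 386 and 366, at 74 bp from its start. The RNA-binding cofactor gene shep had a signal of 477 and ranks of 497, 812 and 525. M1BP, whose product binds Motif 1 of core promoters, had a signal of 379 and ranks of 769, 913 and 1492. Of the 18 genes without an IDR summit, 10 had a weaker peak in the pooled list. JIL-1, the gene of a histone kinase that binds Chromator and which was picked out after its values were seen, had 4 IDR summits. The strongest, with a signal of 374, lay in an intron 7076 bp from a JIL-1 start. The 11 genes held 26 IDR summits in all, with 6 at shep and 3 each at Trl and Nup98-96.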

How the data were processed

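ChIP-seq peak lists from 3 biological replicates of 1 group were read in dm6 coordinates. Per the labels, chromatin was sonicated to fragments of 200 to 800 bp. The authors deposited a relaxed list per replicate, a list from the pooled replicates (14164 peaks) and an IDR set (4555 peaks), which held the 4555 pooled peaks of highest signal. Each deposited peak has a signal, used to rank and describe peaks within 1 list, and a −log10 q-value. The q-value was given only for weaker peaks in the regions of CTCF, Adf1, Chro and mod(mdg4). No peak was ranked or counted by it here. The sources used here name no aligner or peak caller. A control file is named among the inputs of the lists, per the listing that came with them, and its reads were not analysed here. No read counts came with the lists used here, so depth is unknown and the number of libraries limits the precision. The dm3 lists were not used.

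Genes, start sites and features came from Ensembl release 115 (BDGP6.54) and sequences from RefSeq Release 6. A summit was counted for a gene when it lay in the gene body or within 5 kb upstream. Replicate values came from the peak overlapping the IDR peak by at least 1 bp whose summit was nearest. Patterns were sought in 101-bp windows round the summits, on both strands. Shares over all protein-coding genes and all IDR peaks were computed in the same way. All members were named, as were the 4 other genes with the strongest IDR signal and the 3 peaks nearest to Chro in rank, and JIL-1 was named after its values were seen. The symbol SA matched no single annotated gene and was left out. The members, the gene lists and the patterns were chosen with earlier results of these data known. The rule for printing sequences left nothing for Chro and Dref once UTRs were removed, and the printed ones were chosen after their values were seen. Alternatives were the gene body alone, 10 kb upstream, other distances and overlaps, a stricter and a wider list, and leaving out each replicate. Counting and matching were tested on simulated peaks. Python 3.11.15 with pandas 2.3.3, numpy 2.4.6 and matplotlib 3.10.9 was used.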

Additional observations from a re-analysis of the deposited data

How the results depend on the processing

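With the gene body alone, 5 members, 5 summits, 7 other genes and 10.8% of protein-coding genes were counted, by construction fewer than with the 5 kb upstream. Counting only summits nearest to a start of the gene itself gave 4 members, 4 summits, 7 other genes and 17% of protein-coding genes. The stronger part of the IDR list, its 2277 peaks of highest signal, gave 5 members, 6 summits and 20.4% of protein-coding genes, and it left out pzg, su(Hw) and Dref. In that part, 4 members had a summit within 1000 bp of their start, and 5 of the 6 member peaks were matched. No share over all genes or peaks was computed for these last counts. All pooled peaks gave 21 other genes and 61% of protein-coding genes. Asking for 90% of the IDR peak to be covered left 1 member peak matched in all 3 replicates, a rule that the smaller widths of the replicate peaks leave little room to meet. A summit within 100 bp, a rule chosen after seeing the data, matched 9. No share over all IDR peaks was computed for these 90% and 100 bp rules. Leaving out each replicate in turn, with a match asked in the others, gave 7 to 8 members, 8 to 10 summits and 10 to 11 other genes. The share of protein-coding genes was then 27.3% to 28.8%. It also gave 8 to 10 matched member peaks, and of all 4555 IDR peaks 3572, 3624 and 3783 were matched without replicates 1, 2 and 3. From 6 to 7 members were near their start, for which no share over all genes was computed. Dref was lost without replicate 1 or 2 and kept without replicate 3, since the replicate 3 list holds no peak there. No paired analysis was possible because the series has 1 group. Of 61 alternative values, 45 stayed within 1.5 times the value reported. The lists hold only peaks above a minimum signal and no read counts, so a gene without a peak is not shown to be unoccupied.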
